A study of Rattus norvegicus with 16 samples.

Results

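The microRNAs miR-1 and miR-133a form the core striated-muscle pair, and each hairpin also yields a passenger strand, written miR-1* and miR-133a*. On the array they are rno-miR-1, rno-miR-1*, rno-miR-133a and rno-miR-133a*, the prefix standing for the rat. These 4 of the 677 rat miRNAs on the array were selected by name, without reference to their signal, and all their probes were kept (10 of 1644 probes). There were 2 probes each for miR-1, miR-133a and miR-133a* and 4 for miR-1*. The samples were hindlimb muscles of male Fischer 344 rats, profiled on 16 single-colour arrays in 4 groups of 4. The groups were extensor digitorum longus (EDL, a mainly fast-twitch muscle) at 6 to 7 months, EDL at 25 to 28 months, soleus (a mainly slow-twitch muscle) at 6 to 7 months, and soleus at 25 to 28 months. The younger groups are called young and the older old, and arrays are named by the sample numbers of the labels (young 7 to 10, old 1 to 4). No genotype or treatment differed between groups. The labels do not say that the arrays of a group are separate animals, so the p-values cover the variation among these 16 samples, part of which could be technical.

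A miRNA hairpin is cut into a duplex. One strand, the guide, is loaded into Argonaute and pairs with target mRNAs through its seed, bases 2 to 8, while the passenger strand is mostly degraded. In striated muscle miR-1 and miR-133a are transcribed together from a cluster driven by SRF, MEF2 and MyoD. miR-1 represses Hdac4 and favours myoblast differentiation, whereas miR-133a represses Srf and favours myoblast proliferation. A related cluster yields miR-206 and miR-133b.

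The sequences show what the array had to tell apart, with the seed in capitals. They are RefSeq mature sequences of build GRCr8, matched to the older array names by arm. The first 4 are the members and the other 3 are their closest relatives.
miR-1: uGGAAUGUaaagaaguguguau
miR-1*: gCACAUACuucuuuauguaccc
miR-133a: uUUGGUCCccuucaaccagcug
miR-133a*: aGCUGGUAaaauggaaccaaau
miR-206: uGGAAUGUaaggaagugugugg
miR-1b: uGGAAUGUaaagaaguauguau
miR-133b: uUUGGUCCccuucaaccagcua
miR-1, miR-206 and miR-1b share the seed GGAAUGU, and miR-133a and miR-133b share UUGGUCC. Counting from 1 at the 5′ end, miR-206 differs from miR-1 at 3 of 22 bases (A11G, A21G and U22G), all outside the seed. miR-1b differs from miR-1 at 1 base (G17A) and miR-133b from miR-133a at 1 base (G22A), the last one. The probe sequences are not in the files used here, and cross-hybridisation between these relatives was not tested. On GRCr8 the Mir1 hairpin lies at chr18:2160327-2160413 and the Mir133a1 hairpin at chr18:2157872-2157958, both on the minus strand and within the span of Mib1, which is on the plus strand. Whether they lie in an exon or an intron of Mib1 was not examined. The Mir1b hairpin lies at chr3:187864685-187864769 on the plus strand, outside that gene.

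Array brightness sets a limit on every value below. The scaling value, each array's 75th percentile of detected probes, lay between 589 and 1864 for EDL and between 290.1 and 681 for soleus. By barcode all EDL arrays shared 1 slide, and the young and old soleus arrays each had a slide of their own. The young and old EDL arrays differed in the position number that follows the slide number in the barcode. Slide and group cannot be told apart for the soleus ages or for either muscle comparison, nor position number and age in EDL. Among marker lists, 5 of the 6 striated-muscle miRNAs on the array were well above background, and the neural (miR-124, miR-9) and liver (miR-122) markers were well above background on 0 arrays. All values are signal divided by the array's own percentile, called scaled signal, unless said to be processed signal. The level of one probe is not set against that of another.

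miR-1 was well above background on all 16 arrays, with processed signal of 2973 to 31029 from its brighter probe. In EDL its scaled signal was 16.05, 18.6, 13.2 and 18.6 on young arrays 7, 8, 9 and 10, and 18.3, 18.1, 15.1 and 14.9 on old arrays 1, 2, 3 and 4. The EDL ages overlapped, with the lowest value on young 9, the dimmest EDL array. In soleus it was 10.2, 11.8, 13.5 and 11.7 on young arrays 7 to 10, and 7.63, 10.5, 10.4 and 10.5 on old arrays 1 to 4. Old soleus 1 stood below the other old soleus arrays, and the highest young soleus value (13.5) lay just above the lowest young EDL value (13.2).

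miR-133a was likewise well above background on every array (processed signal 433 to 4216). Its scaled signal was 2.08, 2.72, 2.22 and 2.61 in young EDL and 2.37, 2.46, 2.33 and 2.05 in old EDL, in the order of the sample numbers. In soleus it was 1.49, 1.49, 1.75 and 1.57 on young arrays and 1.22, 1.38, 1.40 and 1.39 on old arrays. Every soleus value was below every EDL value, and every old soleus value below every young soleus value.

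miR-133a*, the passenger strand of that hairpin, was also well above background on all 16 arrays, with processed signal from 80.2 to 762. It read 0.357, 0.374, 0.273 and 0.405 in young EDL and 0.408, 0.445, 0.353 and 0.390 in old EDL. Young soleus arrays gave 0.276, 0.321, 0.379 and 0.323, and old soleus arrays 0.249, 0.305, 0.335 and 0.347. In young rats the muscles overlapped, and in old rats the lowest EDL value (0.353) lay just above the highest soleus value (0.347).

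miR-1* was close to the detection limit. Its brightest probe gave a processed signal between 15.1 and 30.4 on all arrays and was well above background on 7 of 16. Those 7 were 1 young EDL, 3 old EDL, 1 young soleus and 2 old soleus arrays, and its other 3 probes were well above background on 4 to 6 arrays. The processed signal was 22.0, 15.1, 20.6 and 22.8 in young EDL, 17.3, 23.6, 23.0 and 24.2 in old EDL, 25.7, 19.6, 18.7 and 28.1 in young soleus, and 21.4, 27.3, 28.0 and 30.4 in old soleus. Over the same arrays the processed signal of miR-133a* moved from 80.2 to 762, so miR-1* did not follow array brightness as the other members did. After scaling, 7 of the 8 EDL arrays fell under the floor (0.0339, to which lower scaled values were raised), whereas 1 of the 8 soleus arrays did.

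**Figure D1:**
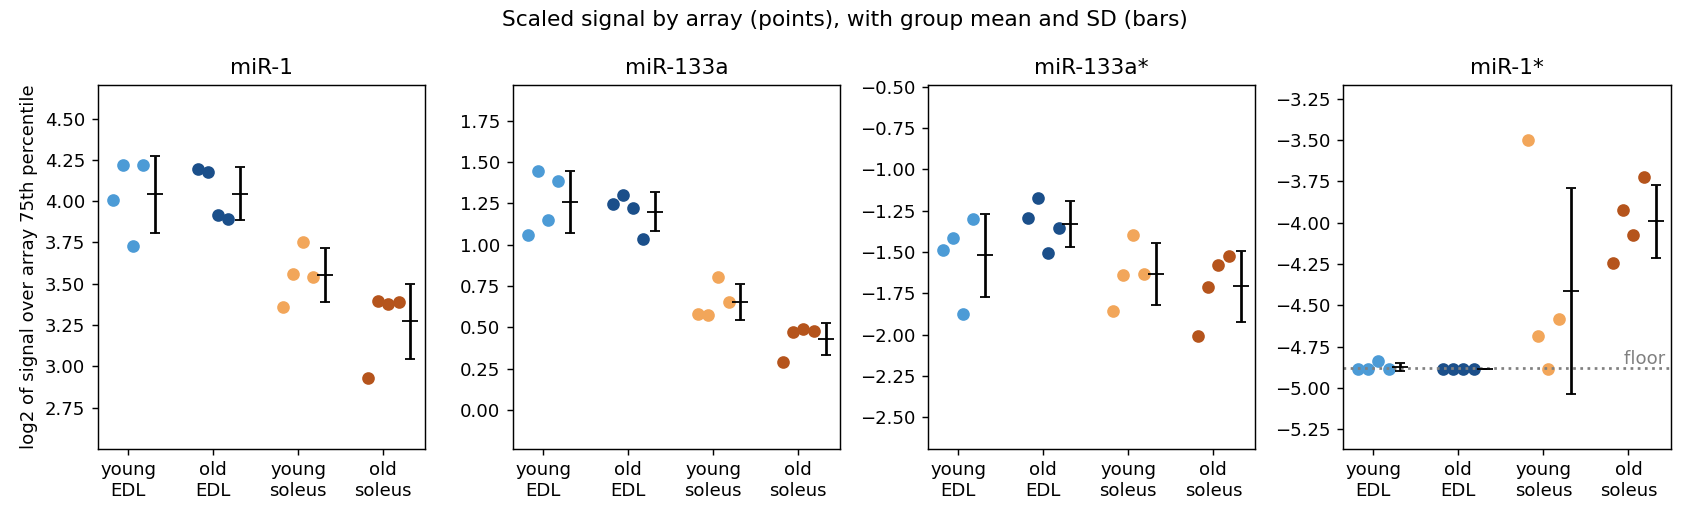
Log2 scaled signal of the brightest probe of each member (vertical axis, the same span in each panel) by group; points are arrays in the order of their sample numbers and bars give the group mean and SD (n = 4). miR-1 and miR-133a sit lower in soleus than in EDL after this scaling (not with scaling to the labelling spike-ins in young rats), miR-133a* overlaps more, and miR-1* lies at the floor on nearly every EDL array.

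The age comparisons ask whether the pair changes between young and old muscle. Neither guide nor passenger strand passed the test in EDL, where 12.3% of the 114 tested miRNAs were called, and 0 of the 4 members had an unadjusted p under 0.05 in limma, against 26 of the 114. For miR-1 the difference, old minus young, was log2 0.0041 (SE 0.14, limma, adjusted p = 1, n = 4 per group), with a 95% interval, unadjusted as all intervals here, from -0.29 to 0.30. It was -0.058 for miR-133a (SE 0.09, adjusted p = 0.876, interval -0.25 to 0.14). miR-133a* stood at 0.19 (SE 0.14, adjusted p = 0.52, interval -0.11 to 0.49). For miR-1* both ages lay at or near the floor, so its fitted difference of -0.011 has no meaning as a level.

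In soleus, where 3.51% of tested miRNAs were called with age, 0 of the 4 members passed limma's adjusted test and 1, miR-133a, had an unadjusted p under 0.05, against 35 of the 114 tested. miR-133a stood at log2 -0.22 (SE 0.09, limma, adjusted p = 0.125, interval -0.42 to -0.026), and its age groups did not overlap, as held for 21.9% of tested miRNAs. miR-1 stood at -0.28 (SE 0.14, adjusted p = 0.197, interval -0.58 to 0.017) and at -0.17 without old soleus 1. The passenger strand miR-133a* was at -0.075 (SE 0.14, adjusted p = 0.841) and miR-1* at 0.42 (SE 0.23, adjusted p = 0.265). Without young soleus 7 the miR-1* value became 0.73 (limma, adjusted p = 0.000681), but on unscaled signal it was 0.12 (adjusted p = 1), and with 3 of 8 soleus arrays well above background it was not measured as a level. With scaling to the labelling spike-ins, synthetic RNAs added to each sample, the calls changed: miR-1 (-0.58), miR-133a (-0.52) and miR-133a* (-0.37) then passed. That change of scaling moved all 3 by the same amount, as it does any miRNA above the floor. The 3.51% does not apply to it, and over all settings the miRNAs called with age in soleus ranged from 0 to 39. These calls are therefore not read as particular to the members.

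The difference between the muscles in their age effects, soleus minus EDL, did not pass for any member with percentile scaling (0.877% of tested miRNAs called). It was log2 -0.29 for miR-1 (SE 0.19), -0.16 for miR-133a (SE 0.13) and -0.27 for miR-133a* (SE 0.20), with adjusted p from 0.554 to 0.578 in limma. For miR-1* it rests on EDL values at the floor and is not read. With scaling to the labelling spike-ins 3 members passed: miR-1 (-0.54, adjusted p = 0.0273, limma), miR-133a (-0.41, adjusted p = 0.0401) and miR-133a* (-0.52, adjusted p = 0.0273). Here too the change of scaling moved all 3 by the same amount. Over all settings the miRNAs called in this comparison ranged from 0 to 29, so the 3 calls are not read as particular to the members. The pair's relative miR-206, by contrast, was the single miRNA that passed this comparison with percentile scaling (-1.54, adjusted p = 9.79e-06, limma).

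**Figure D2:**
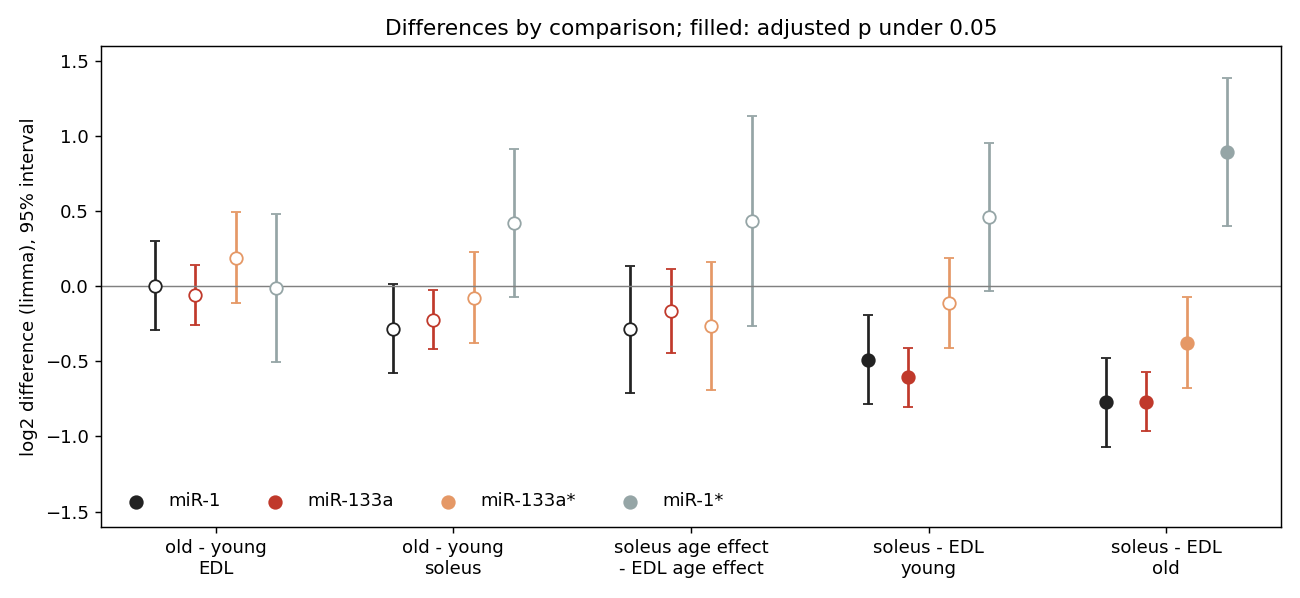
Log2 difference of each member (vertical axis) in each of the 5 comparisons, from the limma fit over 114 miRNAs; bars are 95% intervals without adjustment, and filled points have an adjusted p under 0.05. The age comparisons hold open points only, and miR-1 and miR-133a lie below 0 in both muscle comparisons with percentile scaling, though not in young rats with spike-in scaling.

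The muscle comparisons ask how soleus differs from EDL at each age. Both guide strands were lower in soleus relative to the array percentile. In young rats miR-133a was 1.52-fold lower (log2 -0.61, SE 0.09, adjusted p = 0.000158, limma, n = 4 per group) and its groups did not overlap. miR-1 was 1.40-fold lower there (-0.49, SE 0.14, adjusted p = 0.0123). In old rats miR-133a was 1.71-fold lower (-0.77, SE 0.09, adjusted p = 2.09e-05) and miR-1 also 1.71-fold lower (-0.77, SE 0.14, adjusted p = 0.000467), and neither pair of groups overlapped. The comparison called 43% of tested miRNAs in young rats, 23.7% as lower, and 53.5% in old rats, 32.5% as lower. Groups did not overlap for 35.1% of tested miRNAs in young rats and 52.6% in old rats. In bulk muscle, fewer fibres that carry a miRNA and less of it per fibre cannot be told apart.

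The passenger strand of miR-133a differed less. It stood at log2 -0.11 in young rats (SE 0.14, adjusted p = 0.592, limma, interval -0.41 to 0.19) and was 1.30-fold lower in old soleus (-0.38, SE 0.14, adjusted p = 0.0365). That call was lost without old EDL 1, 2 or 4 or old soleus 1 or 2, with values from -0.38 to -0.28. miR-1* stood at 0.46 in young rats (SE 0.23, adjusted p = 0.12) and was called higher in old soleus at 0.89 (SE 0.23, adjusted p = 0.00524, limma), where 19.3% of tested miRNAs were called higher in young and 21.1% in old soleus. All 4 old EDL values behind that call lay at the floor, and on unscaled processed signal the difference was 0.20 (adjusted p = 0.187), so it was not measured as a level.

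The size of the muscle difference of both guides depended on the scaling, while in old rats they stayed lower in soleus under each setting run. One of these, quantile normalisation, gave miR-1 the same -1.52 at both ages and 0 for both age effects. Those values reflect only its rank on each array. With scaling to the labelling spike-ins, miR-1 turned to log2 0.12 and miR-133a to 0.0015 in young rats, and they stood at -0.42 and -0.41 in old rats (limma, adjusted p = 0.00642 and 0.00397). With array brightness as a covariate miR-133a kept its calls (-0.58 and -0.74, adjusted p = 0.00392 and 0.00539, limma), and the miR-1 calls were lost (-0.27 and -0.46). The scaling values of old EDL (866 to 1830) and old soleus (400 to 472) did not overlap. In old rats that fit therefore extrapolates, and brightness and muscle cannot be told apart. miR-133a* turned positive under that covariate (0.20 and 0.073) and, with spike-in scaling, passed as higher in young soleus (0.50, adjusted p = 0.00151). With normexp background correction both guides missed the threshold in young rats (-0.47 for miR-1 and -0.44 for miR-133a). Without scaling, the differences were -1.64 and -2.47 for miR-1, the soleus arrays being the dimmer ones.

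**Figure D3:**
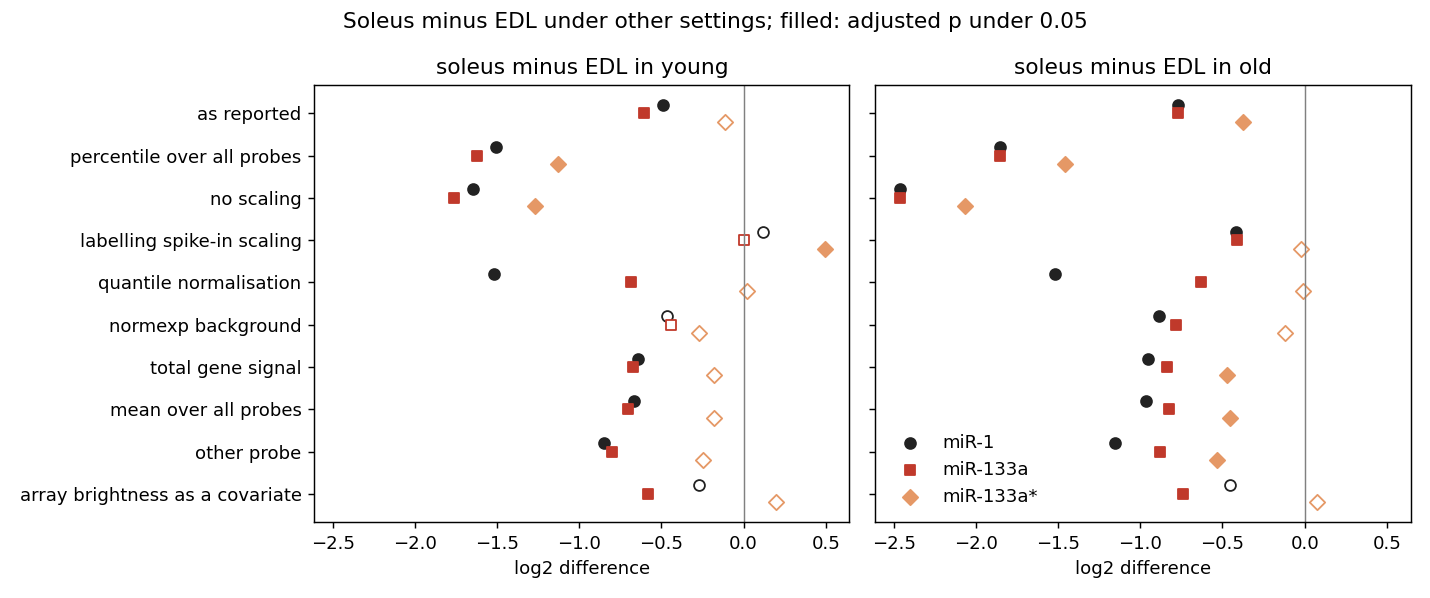
Log2 difference of soleus minus EDL (horizontal axis) for miR-1, miR-133a and miR-133a* under the reported setting and 9 others, in young rats (left) and old rats (right); filled symbols have an adjusted p under 0.05. In old rats both guides stay below 0 in each setting shown, and in young rats spike-in scaling puts them at 0.12 and 0.0015.

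Ratios of 2 miRNAs on the same array need no scaling between arrays, and only their change between groups is read. The log2 ratio of miR-1 over miR-133a, cluster partners, was 2.78 (SD 0.16) in young EDL, 2.85 (SD 0.11) in old EDL, 2.90 (SD 0.09) in young soleus and 2.84 (SD 0.13) in old soleus. All groups overlapped. Soleus minus EDL was 0.12 in young rats (exact permutation p = 0.257, two-sided, adjusted p = 0.679 over 5 tests) and -0.0036 in old rats (exact p = 0.943, adjusted p = 0.943). Intervals from inverting that test ran from -0.17 to 0.41 and from -0.30 to 0.23. The age changes were 0.062 in EDL and -0.059 in soleus (exact p = 0.543 for each, adjusted p = 0.679). With the dimmer probe of each miRNA the old-rat value was -0.27 (adjusted p = 0.395, exact permutation).

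The near-identical miR-133a and miR-133b had different values between muscles. Their log2 ratio, miR-133a over miR-133b, ran from -3.85 to -3.72 in young EDL and from -3.97 to -3.79 in old EDL, against -4.50 to -4.40 in young soleus and -4.51 to -4.40 in old soleus. The muscles were widely apart at both ages and the SD within a group was 0.04 to 0.08. Soleus minus EDL was -0.67 in young rats (interval -0.77 to -0.55) and -0.58 in old rats (interval -0.72 to -0.43). Each had an exact permutation p of 0.0286, the smallest that 4 against 4 arrays allow, which becomes 0.0714 adjusted over 10 tests. It stayed below 0 in both comparisons under each alternative run, from -0.87 to -0.43 in young rats and from -0.62 to -0.47 in old rats. By itself miR-133b did not pass in either muscle comparison (limma, 0.07 in young rats, adjusted p = 0.566, and -0.19 in old rats, adjusted p = 0.0683). Age moved the ratio by -0.10 in EDL (exact p = 0.114, adjusted p = 0.191) and -0.0088 in soleus (exact p = 0.771).

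The guide-to-passenger ratio of the miR-133a hairpin was lower in every soleus array than in every EDL array of the same age, though it missed the adjusted threshold. Log2 miR-133a over miR-133a* was 2.78 (SD 0.21) in young EDL and 2.53 (SD 0.14) in old EDL, against 2.28 (SD 0.11) in young soleus and 2.14 (SD 0.13) in old soleus. The differences of -0.49 and -0.39 each had an exact permutation p of 0.0286 (adjusted p = 0.0714). With normexp background correction they were -0.17 (adjusted p = 0.971, exact permutation) and -0.66. With age the ratio moved by -0.25 in EDL (exact p = 0.114, adjusted p = 0.191) and -0.15 in soleus (exact p = 0.143, adjusted p = 0.204). No such ratio was formed for miR-1, whose passenger strand was near background. Between muscles the 2 probes of miR-1 itself shifted against each other by log2 0.36 in young and 0.38 in old rats, also without overlap. That is near the size of the guide-to-passenger differences, and the part of the probes in those was not tested.

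**Figure D4:**
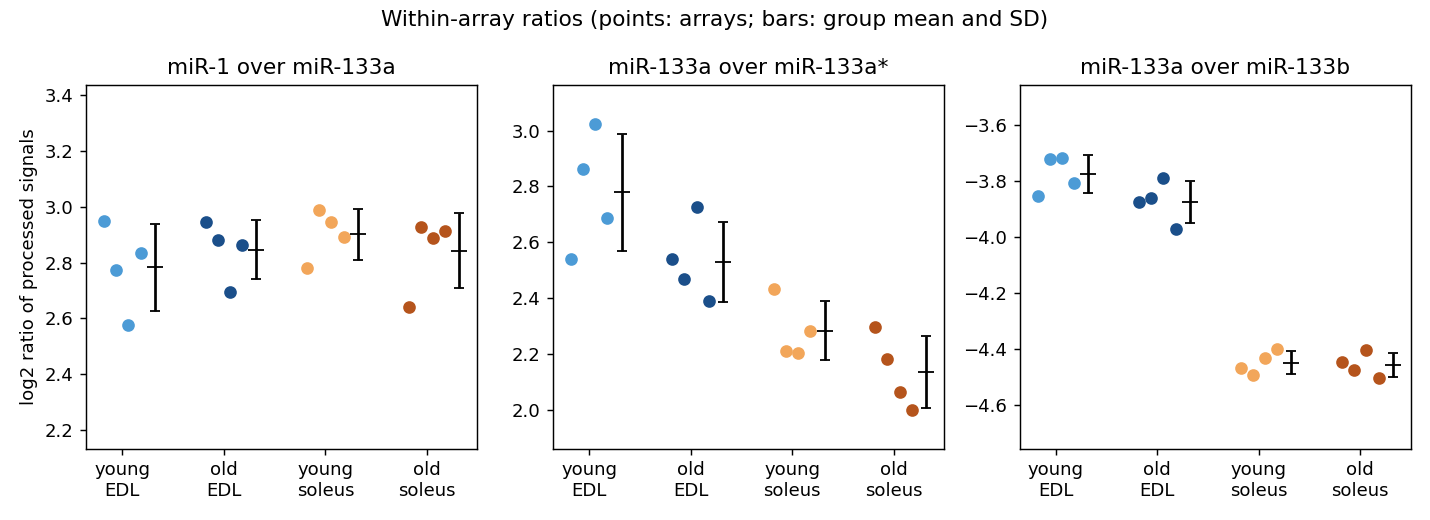
Within-array log2 ratio of processed signals (vertical axis, the same span in each panel) for 3 pairs; points are arrays and bars give the group mean and SD (n = 4). The ratio of miR-1 over miR-133a overlaps across all 4 groups, whereas both other ratios are lower on every soleus array than on every EDL array of the same age.

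Probes of the same miRNA give a yardstick for such ratios. The brighter miR-1 probe read 1.67 to 1.75 times the dimmer one in young EDL and 1.59 to 1.82 times in old EDL, but 2.10 to 2.25 times in young soleus and 2.08 to 2.28 times in old soleus. This shift between muscles was log2 0.36 in young and 0.38 in old rats, with no overlap (exact permutation p = 0.0286 each, adjusted p = 0.0571 over 6 tests). For miR-133a the shift was 0.20 in young (exact p = 0.0286) and 0.11 in old rats (exact p = 0.114), and for miR-133a* 0.14 and 0.16 (exact p = 0.0571 each). In consequence the muscle difference of miR-1 depended on the probe: the dimmer probe gave log2 -0.85 in young and -1.15 in old rats (limma, adjusted p = 0.000529 and 5.02e-05). The same choice moved miR-133a to -0.80 and -0.88, and the ratio of miR-133a over miR-133b to -0.87 and -0.60. Soleus arrays were also the dimmer ones, and the part of brightness in the probe ratios was not tested.

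**Figure D5:**
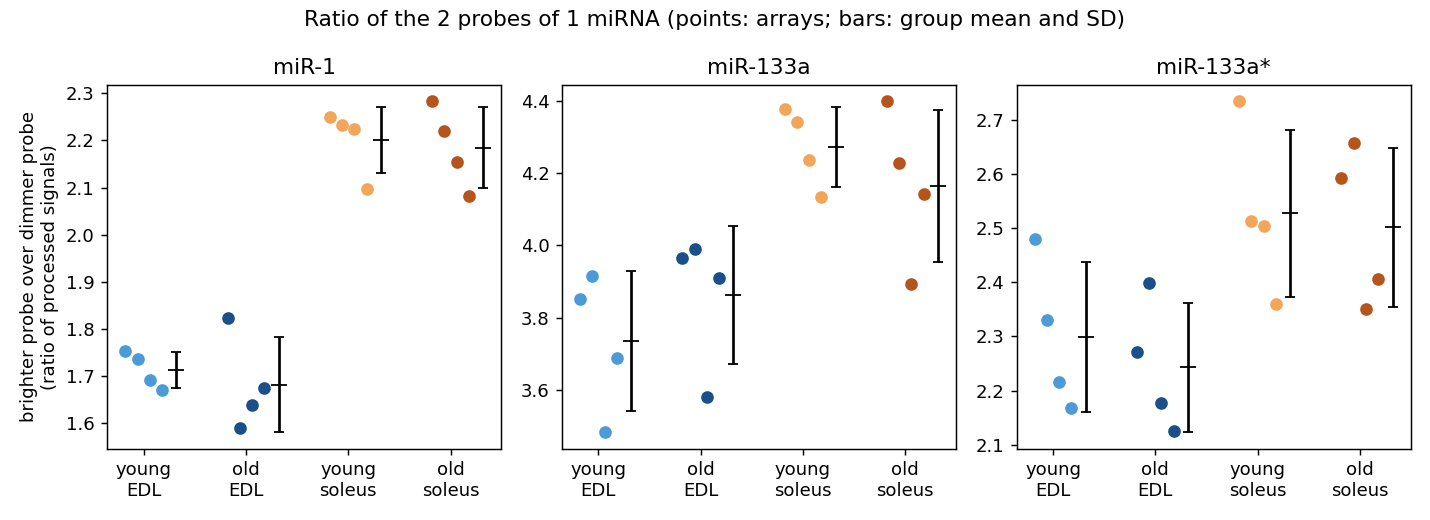
Processed signal of the brighter probe divided by that of the dimmer probe of the same miRNA (vertical axis, own scale per panel) by array; bars give the group mean and SD (n = 4). For miR-1 the EDL arrays lie between 1.59 and 1.82 and the soleus arrays between 2.08 and 2.28.

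Other striated-muscle miRNAs went their own ways between the muscles. Of 5 tested, 2 were higher in soleus at both ages, miR-206 (log2 3.52 in young and 1.98 in old rats) and miR-499, encoded in a slow myosin gene (3.77 and 3.35), and 2 were lower, the 2 guides described here. For miR-499, 6 of the 8 EDL arrays fell under the floor, so the size of its difference depends on the floor. The passenger strands of miR-133b, miR-206, miR-499 and miR-208 were well above background on 0 arrays, so that miR-133a* was the one well-measured passenger strand of this group. Markers of other cell types are given with percentile scaling only, and other scalings can move them as they moved the guides. Of all tested miRNAs 23.7% were called lower in young soleus and 32.5% in old soleus. Both smooth-muscle markers were lower in soleus at each age. Their summed scaled signal was 0.622 to 0.836 in young EDL against 0.473 to 0.597 in young soleus, and 0.641 to 0.849 against 0.411 to 0.528 in old rats. Of 5 fibroblast miRNAs 4 were lower in young soleus and 2 in old soleus, with summed signal of 0.563 to 0.879 in young EDL against 0.377 to 0.481 in young soleus, and 0.653 to 1.07 against 0.541 to 0.824 in old rats. Of the 2 endothelial miRNAs, miR-126* was well above background on 6 of 16 arrays. Its fitted difference was 0 at each age, so it was not measured as a level. The other, miR-126, did not pass in young rats (log2 -0.33, adjusted p = 0.0532, limma) and was lower in old soleus (-0.48, adjusted p = 0.00654). Of the leukocyte miRNAs, 2 were tested, and 1 was higher and 1 lower in soleus at each age, and the 1 erythroid miRNA tested passed at neither age. The part of these cell types in the guide results was not tested.

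Across the 16 arrays, the miRNAs with the pattern most like miR-1 among 70 that were never at the floor were miR-22 (Pearson r = 0.961), miR-133a (0.952) and miR-30a (0.952). For miR-133a they were miR-30a (0.979), miR-1 (0.952) and miR-30a* (0.949). These values are descriptions, since the arrays share their scaling and fall into 2 muscles. With each group's mean taken out, miR-133a* ranked first for miR-1 (r = 0.928) and miR-133b ranked second for both miR-1 (0.907) and miR-133a (0.894). The correlation of miR-133a with its own passenger strand was 0.666, and 0.656 without the group means. miR-206 ran opposite to both guides (r = -0.773 and -0.874) over all arrays, and was at 0.138 and 0.149 within groups.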

How the data were processed

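The deposited spot intensity values were made by the authors with Agilent Feature Extraction 10.7.3.1, per the file headers (10.7 per the submitters' processing notes), without scaling between arrays. Cy3-labelled total RNA was hybridised to 1 array per sample, per the labels' protocols. The deposited flags for spot quality, 0 or 1, were used as given. The median and background signals entered only the normexp setting, and the total gene signal only the setting of that name. The authors' series table held equal values (100% of cells) and was not analysed separately. Control spots and outlier spots (3.03%) were left out, and 0 spots were saturated. Spots were averaged per probe, and a probe counted as well above background when over 0.5 of its spots did. Signals were scaled within arrays to the 75th percentile, taken over 95 probes that passed on all arrays. Values were then raised to a floor (0.0339, log2 -4.88, the arrays' median for the dimmest passing probe) and converted to log2. The brightest probe represented a miRNA, and miRNAs well above background on 4 or more arrays were tested (114 of 677). One limma model (limma 3.58.1, R 4.3.3) of the 4 groups gave 5 contrasts, two-sided, Benjamini-Hochberg adjusted over all tested miRNAs at 0.05. It was checked on simulated data. Single ratios were tested by exact permutation over arrays (scipy 1.17.1), with 0.0286 the smallest p for 4 against 4. Only the miR-1 over miR-133a ratio was planned; the other ratios and probe ratios were added after seeing the data. The members, lists and naming rule (the members, the striated-muscle list, and the 3 miRNAs most correlated with each guide) were chosen with earlier results of these data known. The number of arrays limits the precision.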

Additional observations from a re-analysis of the deposited data

Results flagged for a closer look

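Old soleus 1 stood apart from its group in 3 measures, each with a gap to the nearest array above Dixon's critical value for 4 samples: log2 scaled miR-1 (2.93, others 3.38 to 3.40), log2 scaled miR-133a (0.29, others 0.47 to 0.49) and the log2 ratio of miR-1 over miR-133a (2.64, others 2.89 to 2.93). Young EDL 9 stood apart for miR-1* (-4.84) because the other 3 arrays lay at the floor. Of 28 sets of 4 arrays examined, 4 stood apart in this way, and chance does so for about 1 in 20 separate sets without a floor. Here 3 of the 4 share old soleus 1 and 1 rests on the floor, so the count cannot be read against that rate.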

How the results depend on the processing

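Of 830 values under other settings, 748 kept direction and side of the threshold, and the cause of the other changes was not tested. Part of the 830 could not change in value, as when the array left out was in neither group compared. A ratio comparison of groups with 1 array left out could not pass the threshold. The count is therefore not a measure of robustness. Values are log2 differences. Leaving out 1 array moved miR-1 between -0.10 and 0.06 for EDL age, miR-133a between -0.13 and 0.0041 for EDL age, and miR-133a* between -0.15 and 0.03 for soleus age and -0.44 and -0.28 between old muscles. It moved miR-1* between 0.26 and 0.73 for soleus age, 0.28 and 0.74 for the interaction (both passing without young soleus 7) and 0.16 and 0.62 between young muscles (passing without young soleus 9). The ratio of miR-1 over miR-133a moved between -0.0066 and 0.12 (EDL age), -0.10 and 0.0073 (soleus age) and -0.053 and 0.063 (old muscles), and miR-133a over miR-133b between -0.027 and 0.0074 (soleus age). Over all settings the miRNAs called ranged from 0 to 23 for EDL age, 0 to 39 for soleus age (4 as reported, 26 without young soleus 7), 0 to 29 for the interaction (1 as reported, 9 without young soleus 7), 5 to 64 between young and 7 to 93 between old muscles. Scaling to the labelling spike-ins gave, for EDL age, miR-1 -0.044; for soleus age, miR-1 -0.58, miR-133a -0.52 and miR-133a* -0.37; for the interaction, -0.54, -0.41 and -0.52 (all 6 soleus age and interaction values passing); between young muscles, miR-1 0.12, miR-133a 0.0015, miR-133a* 0.50 and miR-1* 0.75 (the last 2 passing); and miR-133a* -0.020 between old muscles. Brightness as a covariate gave, for EDL age, miR-1 -0.046 and miR-1* 0.074; between young muscles, miR-1 -0.27 and miR-133a* 0.20; between old muscles, miR-1 -0.46, miR-133a* 0.073 and miR-1* 0.35. The percentile over all probes gave miR-1 -0.31 and miR-133a* -0.12 for EDL age, miR-133a* -1.13 between young and miR-1* 0.36 between old muscles. No scaling gave miR-133a 0.21 and miR-1* 0.025 for EDL age, miR-133a* -1.27 between young and miR-1* 0.20 between old muscles. Quantile normalisation gave miR-133a* -0.078 (EDL age), 0.021 (young muscles) and -0.012 (old muscles), and miR-133a 0.054 for the interaction. Normexp background correction gave miR-133a 0.12 and miR-133a* -0.19 for EDL age, miR-133a* 0.15 for the interaction, miR-1 -0.47 and miR-133a -0.44 between young muscles, and miR-133a* -0.12 and miR-1* 1.06 between old muscles. It gave miR-1 over miR-133a -0.019 (EDL age) and -0.025 (young muscles), miR-133a over miR-133a* 0.31 (EDL age) and -0.50 (interaction), and miR-133a over miR-133b 0.064 (EDL age), 0.031 (soleus age) and -0.033 (interaction). The dimmer probe gave miR-1 over miR-133a -0.049 between young muscles and miR-133a over miR-133b 0.10 for soleus age; the mean over probes gave the latter 0.044 and total gene signal 0.012. Between young muscles miR-1* was 1.04 with total gene signal and 1.13 with the floor lowered to 0.5 of itself. Without young soleus 7 and 8 together, miR-1* was 0.74 (soleus age) and 0.75 (interaction), both passing, and between young muscles miR-1 was -0.39, no longer passing (adjusted p = 0.11, limma), and miR-133a* 0.0054. Without the dim-probe filter miR-1 (-0.49, young muscles) and miR-133a* (-0.38, old muscles) lost their calls. With the sample number as a replicate block both kept these sizes but not their calls (adjusted p = 0.0595 and 0.107, limma); same-numbered samples correlated from -0.61 to 0.65, which does not settle whether the numbers pair the samples, and they were treated as unpaired. Signal over background limits miR-1*, well above background on 7 of 16 arrays.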
